A study of Homo sapiens with 4 samples.

Results

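The genes described here are 8 genes of the response to double-stranded RNA: IFIH1, RIGI, EIF2AK2, OAS1, OAS2, OAS3, MAVS and IFNAR1. Their members in the data are the clusters of IP reads, each compared by the authors with input, whose midpoint lies inside the RefSeq GRCh38 span of one of these genes, on the strand of that gene. Of 534161 clusters in replicate 1, 128 lay in the 8 genes, and of 155848 clusters in replicate 2, 63 did. None of the 1717 peaks in the authors' reproducible list, which combines the replicates, lay in them. Clusters were found in 5 of the 8 genes.

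The study mapped RNA bound by ADAR, the editing enzyme that turns adenosine into inosine in RNA duplexes, by enhanced crosslinking and immunoprecipitation (eCLIP). The cells were K562, an established human leukaemia line of erythroid and myeloid character, grown in standard medium with no treatment, so no interferon was given in any sample. An ADAR1 antibody was used for the 2 immunoprecipitated (IP) libraries and none for the 2 input libraries, and each kind is numbered as replicates 1 and 2. The labels do not name separate cultures for the replicates, so the spread between them may be technical only. K562 is a single cell line, and the protocol text shared by all 4 samples also describes HepG2 liver cells. Clusters lay in all 12 K562 marker genes examined in replicate 1 and in 11 in replicate 2. Of 12 hepatocyte markers, 1 held a single cluster in replicate 1 and none held a cluster in replicate 2.

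Each cluster carries the authors' log2 fold of IP over input and the authors' −log10 p of that fold. Enriched here means a log2 fold of 3 or more together with a −log10 p of 3 or more. By that rule 1.39% of all replicate 1 clusters and 12.8% of all replicate 2 clusters were enriched. Over all clusters the median log2 fold stood at 0.07 for replicate 1 and 1.85 for replicate 2. The folds moved in steps that allow the IP and input reads of a cluster to be recovered, which put the depth of IP at 3.33 times that of input in replicate 1 and at 0.553 times in replicate 2. With 1 input read, a cluster needed 37 IP reads to be enriched in replicate 1 and 9 in replicate 2. Intervals below are exact 95% intervals of a cluster's fold from these reads, and they cover counting error only.

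Cells detect long double-stranded RNA in the cytoplasm through several families of proteins. IFIH1 (MDA5) and RIGI are helicases that signal through MAVS, an adaptor on the outer mitochondrial membrane, to switch on type I interferon genes. EIF2AK2 (PKR) is a kinase that stops translation by phosphorylating eIF2α, and the OAS enzymes make 2′-5′ oligoadenylates, a second messenger, when they bind it. Secreted interferon binds a receptor that includes IFNAR1 and raises the transcription of many genes, several of the sensors among them. ADAR is known for keeping the cell's own double-stranded RNA, much of it from inverted Alu repeats, from setting off these sensors. Here the question is whether clusters enriched with ADAR lie on the transcripts of the sensors and their signalling partners themselves.

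The promoters of the members were searched for letters of the interferon-stimulated response element, which IRF and STAT factors bind and through which interferon acts. A match does not show a working element, and the lack of a match does not show that a gene has none. Parts of the promoters are shown so that the cluster numbers of each member can be set beside them. RefSeq promoter windows of GRCh38.p14, from 250 bases before to 50 bases after the start, were searched on both strands for AANNGAAA, the IRF core, and for the longer GAAANNGAAA, which contains a core match. Windows were given for 7 of the 8 members, all but OAS2. The 30-base stretches that follow are written 5′ to 3′ on the gene's strand, and the capitals mark the core match nearest the start on that strand.
EIF2AK2, chr2:37156966-37156995, minus strand: gtccaaggggaAAACGAAActgagaaccag
IFIH1, chr2:162318685-162318714, minus strand: aagagAATCGAAACAGAAAccaaagtcagg
RIGI, chr9:32526380-32526409, minus strand: ggtgcggagggAAACGAAActagcccgagg
OAS1, chr12:112906935-112906964, plus strand: cccttctgaggAAACGAAAccaacagcagt
OAS3, chr12:112938453-112938482, plus strand: gccgggcgggaAAACGAAAccagaaatccg

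The match nearest the start began 4 bases before it in EIF2AK2, 10 in OAS3, 16 in OAS1, 19 in IFIH1 and 202 in RIGI. In IFIH1 the capitals cover 2 overlapping matches. EIF2AK2, OAS1, OAS3 and RIGI share the run AAACGAAA there. The core was found 4 times in the IFIH1 window, 3 times each in those of RIGI and OAS3, 2 times in that of OAS1 and 1 time in that of EIF2AK2. The longer element was found 3 times in IFIH1, 2 times in OAS3 and 1 time in EIF2AK2, and it was not found in RIGI or OAS1. MAVS and both windows of IFNAR1 held neither. Among all 35116 promoter windows, 22.8% held the core and 3.57% held the longer element. Of the 5 members with a core match, IFIH1, RIGI, OAS1 and OAS3 held at most 2 clusters in a replicate. EIF2AK2, the other, held 45 in replicate 1 and 24 in replicate 2. MAVS and IFNAR1, without a match, held 36 and 45 in replicate 1 and 22 and 15 in replicate 2. These matches are letters in a window, and no binding there was measured.

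The sensors IFIH1, OAS1 and OAS2 held no cluster in either replicate. Their spans are on chromosome 2 from 162267074 to 162318684 for IFIH1, on chromosome 12 from 112906962 to 112933219 for OAS1 and on chromosome 12 from 112978519 to 113011723 for OAS2. Of 15843 protein-coding genes with a known strand, 66.4% held a cluster in replicate 1 and 50.8% in replicate 2. A gene without a cluster may be unbound or hardly transcribed in these cells, and the lists cannot tell these apart.

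RIGI, the sensor of RNA with a 5′ triphosphate, held 1 cluster in its 70.9 kb span on chromosome 9 from 32455302 to 32526196. It was a replicate 1 cluster at a log2 fold of -0.15, placed 1.12 kb before the gene's end, and replicate 2 had none. OAS3, the largest of the OAS enzymes, held 1 cluster in replicate 1 and 2 in replicate 2, on chromosome 12 between 112938474 and 112973251. The replicate 1 cluster had a log2 fold of 0.27. The replicate 2 clusters had folds of 2.85 and 2.44, from 4 and 3 IP reads over 1 input read each. The cluster at 2.44 overlapped the replicate 1 cluster, about 4.57 kb from the gene's start. With so few reads the intervals of the replicate 2 folds ran from -0.48 to 8.48 and from -1.20 to 8.15, so neither fold could be told from 0.

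EIF2AK2, the translation-stopping kinase, held the most clusters of the 6 sensors among the members, 45 in replicate 1 and 24 in replicate 2. Its span is on the minus strand of chromosome 2 from 37099210 to 37156980. That is 0.779 clusters per kb in replicate 1 and 0.415 in replicate 2, against a median of 0.845 and 0.232 over protein-coding genes with a cluster. No replicate 1 cluster was enriched and 2 of the 24 replicate 2 clusters were, or 8.33%. Of all clusters, 1.39% were enriched in replicate 1 and 12.8% in replicate 2. The replicate 1 folds of EIF2AK2 ran from -2.47 to 2.91 with a median of -0.15, and 20 of 45 lay above 0. The replicate 2 folds ran from -0.47 to 4.18 with a median of 1.59, and 23 of 24 lay above 0.

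Both enriched EIF2AK2 clusters lay near the end of the gene. The stronger, at chr2:37103995-37104045 and 4.81 kb before the gene's end, had a log2 fold of 4.18 (interval 1.36 to 9.62) and a −log10 p of 3.61, from 10 IP reads over 1 input read. The replicate 1 cluster at the same place, chr2:37103990-37104045, had a fold of 1.12 from 29 IP reads over 4 input reads. The weaker, at chr2:37100861-37100975 and 1.71 kb before the end, had a fold of 3.18 (interval 0.95 to 6.41) from 10 IP reads over 2 input reads, and no replicate 1 cluster overlapped it. Its −log10 p of 3.00 put it just inside the threshold. The gene's highest fold in replicate 1 was 2.91 (interval 0.30 to 8.27) at chr2:37100422-37100490, from 25 IP reads over 1 input read, with a −log10 p of 1.75. The paired replicate 2 cluster stood at 2.18 from 5 IP reads over 2 input reads. Next in replicate 1 was chr2:37103850-37103909 at 2.66 from 42 IP reads over 2 input reads, and its replicate 2 partner stood at 2.08. These 2 pairs were the EIF2AK2 pairs with the higher fold in replicate 1.

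MAVS, the adaptor downstream of IFIH1 and RIGI, had the highest median fold among the 3 members with at least 10 clusters in both replicates, and the highest single fold in replicate 2. Its span is 29.3 kb on the plus strand of chromosome 20 from 3846834 to 3876118, and it held 36 clusters in replicate 1 and 22 in replicate 2, or 1.23 and 0.751 per kb. The replicate 1 folds ran from -0.51 to 2.59 with a median of 1.07, and 34 of 36 lay above 0. The replicate 2 folds ran from 0.63 to 4.70 with a median of 2.94, and all 22 lay above 0. No replicate 1 cluster was enriched and 7 of 22 replicate 2 clusters were, or 31.8%, against the 12.8% of all replicate 2 clusters.

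The highest MAVS fold was at chr20:3869826-3869902, 6.25 kb before the gene's end. It was 4.70 (interval 3.05 to 7.03), with a −log10 p of 15.7 from 43 IP reads over 3 input reads. The replicate 1 cluster there, chr20:3869831-3869903, had a fold of 2.54 (interval 0.92 to 4.86) and a −log10 p of 3.69 from 58 IP reads over 3 input reads. It was the one replicate 1 cluster in the 8 genes to pass the p threshold, and its fold fell short of the fold threshold. At this place alone both replicates passed the p threshold. The highest replicate 1 fold of the gene was 2.59 at chr20:3870762-3870814, from 20 IP reads over 1 input read, and its −log10 p was 1.19.

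A pair of touching MAVS clusters about 20.6 kb from the start was next in fold and had the lowest p-values. The cluster at chr20:3867441-3867471 had a log2 fold of 4.27 (interval 3.07 to 5.77) from 64 IP reads over 6 input reads. Its neighbour at chr20:3867472-3867511 had a fold of 4.22 (interval 3.02 to 5.72) from 62 IP reads over 6 input reads. Both overlapped a single replicate 1 cluster, chr20:3867438-3867509, with a fold of 1.00 (interval -0.24 to 2.53) from 40 IP reads over 6 input reads. The touching clusters may hold the same reads, and merging them leaves 8 enriched replicate 2 sites in the 8 genes in place of 9 clusters.

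The other 4 enriched MAVS clusters had folds close to the threshold, between 3.02 and 3.18. The best covered was chr20:3870834-3870953, at 3.05 (interval 2.13 to 4.09) from 55 IP reads over 12 input reads, and the replicate 1 cluster there stood at 1.27 from 48 IP reads over 6 input reads. Those at chr20:3872389-3872444 and chr20:3873228-3873310 had folds of 3.10 and 3.02 from 19 and 18 IP reads over 4 input reads each. The cluster at chr20:3866432-3866506 had a fold of 3.18 from 10 IP reads over 2 input reads, and it was the 1 enriched MAVS cluster that no replicate 1 cluster overlapped. A further 4 replicate 2 clusters of MAVS reached folds from 3.18 to 3.85 without reaching the p threshold, each over 1 input read.

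**Figure D1:**
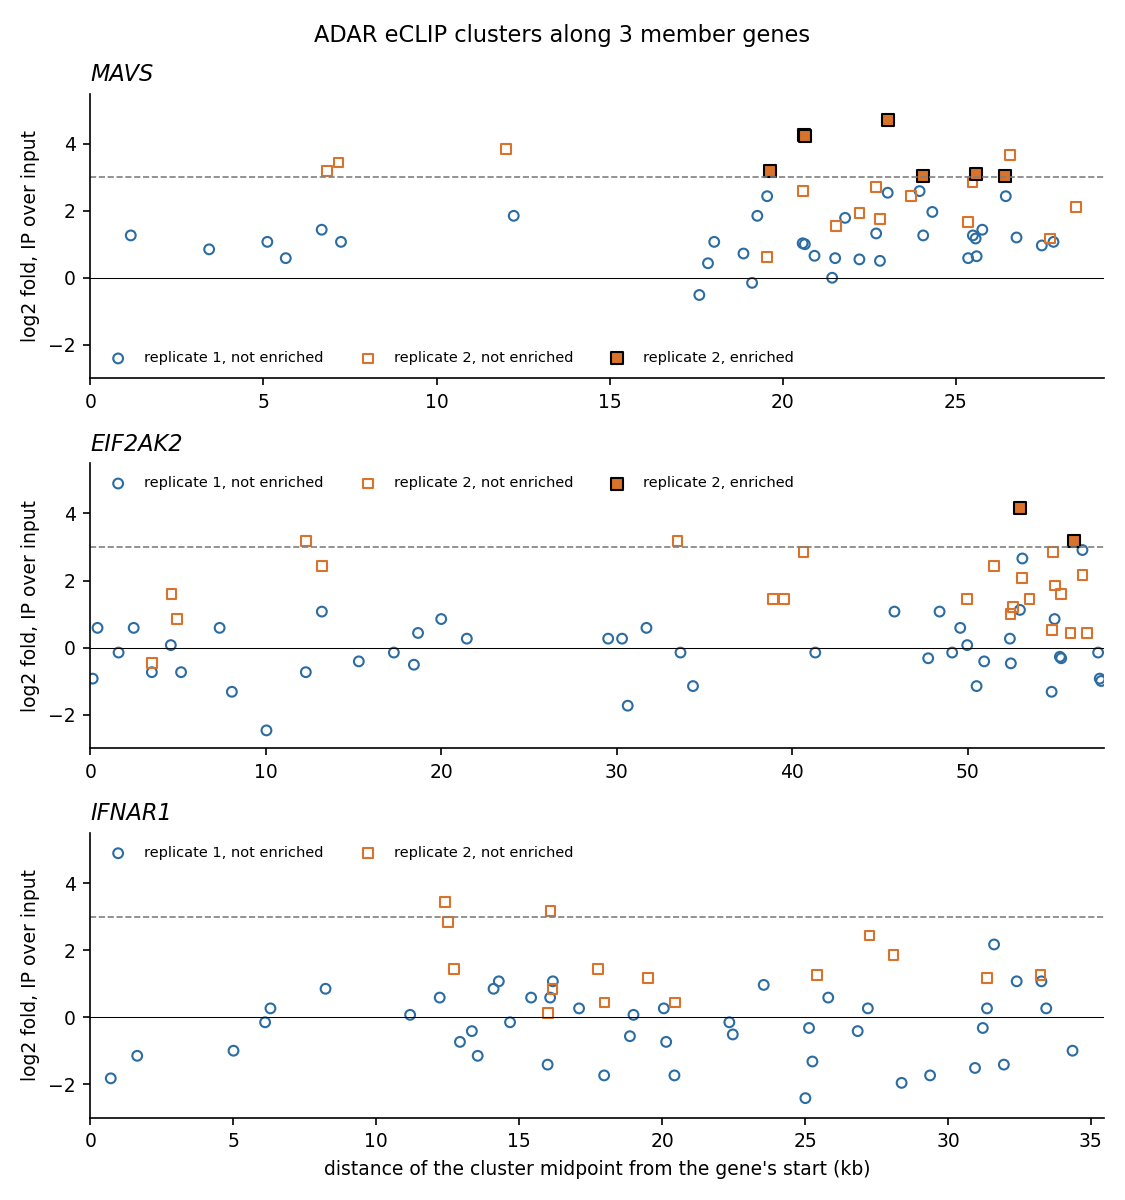
Clusters along MAVS, EIF2AK2 and IFNAR1: distance of the cluster midpoint from the gene's start in kb against the authors' log2 fold of IP over input, with circles for replicate 1, squares for replicate 2, filled squares for enriched clusters and a dashed line at the fold threshold of 3. The 7 enriched MAVS clusters sit between 19.6 and 26.4 kb, the 2 enriched EIF2AK2 clusters between 53.0 and 56.1 kb, and IFNAR1 has none.

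IFNAR1, the interferon receptor chain that binds the kinase TYK2, had many clusters and no enriched one. Its span is on the plus strand of chromosome 21 from 33324395 to 33359864, with 45 clusters in replicate 1 and 15 in replicate 2, or 1.27 and 0.423 per kb. Of all clusters, 1.39% in replicate 1 and 12.8% in replicate 2 were enriched. Among protein-coding genes with at least 10 clusters, 76.4% held no enriched cluster in replicate 1 and 19.3% held none in replicate 2. The replicate 1 folds ran from -2.41 to 2.17 with a median of -0.15. The replicate 2 folds ran from 0.12 to 3.44 with a median of 1.27, and all 15 lay above 0. The highest, at chr21:33336758-33336823, rested on 6 IP reads over 1 input read and had a −log10 p of 2.00, short of the threshold. The highest of replicate 1, at chr21:33355988-33356030, rested on 15 IP reads over 1 input read and had a −log10 p of 0.849. None of the 14 IFNAR1 clusters in replicate 2 with reads recovered held more than 6 IP reads. One replicate 1 cluster, at a fold of -1.82, shared 6 bases with the end of a promoter window of IFNAR1.

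Over the 8 genes together, 0 of 128 replicate 1 clusters and 9 of 63 replicate 2 clusters, or 14.3%, were enriched. Of all clusters, 1.39% were enriched in replicate 1 and 12.8% in replicate 2, and the member share is near that in each replicate. Enriched clusters lay in MAVS and EIF2AK2 in replicate 2 and in no member in replicate 1, so no member was enriched in both replicates. Of protein-coding genes with a cluster, 16.4% held an enriched one in replicate 1 and 44.3% in replicate 2, and of those with a cluster in both replicates 16.9% held one in both. A reproducible peak was held by 2.71% of protein-coding genes and by none of the members.

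**Figure D2:**
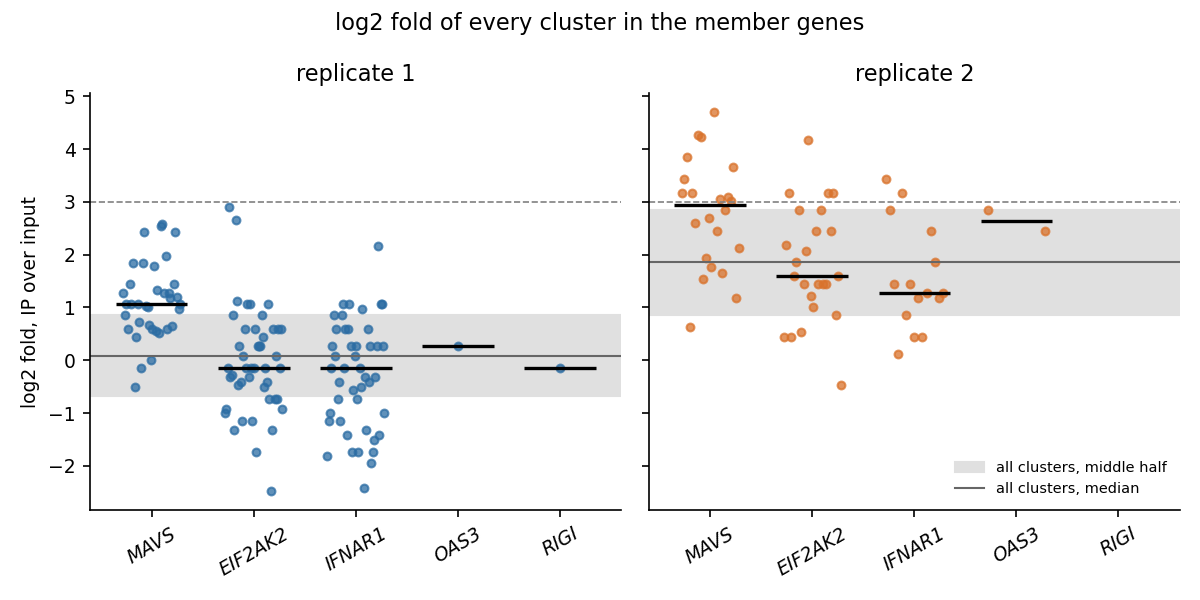
The authors' log2 fold of every cluster in the 5 member genes with clusters, replicate 1 on the left and replicate 2 on the right; short bars are gene medians, the grey band and line are the middle 50% and the median of all clusters of that replicate, and the dashed line is the fold threshold of 3. The MAVS medians of 1.07 and 2.94 lie above the grey band in both replicates, while those of EIF2AK2 and IFNAR1 lie inside it and below the line.

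MAVS stood high among genes by the level of its folds, and not by its single highest cluster. Among 6970 protein-coding genes with at least 10 clusters in replicate 1, 91.6% had a lower median log2 fold than MAVS. Among 3366 such genes in replicate 2, 97.5% had a lower median. In replicate 2, 93.5% of these genes had a lower share of enriched clusters. By the highest fold in the gene, 51.9% of genes were lower in replicate 1 and 61.6% in replicate 2. EIF2AK2 and IFNAR1 were in the lower part of the same ranking. Of the same genes, 13.3% had a lower median than either of them in replicate 1, where both stood at -0.15. In replicate 2, 30.9% were lower than EIF2AK2 and 15.4% were lower than IFNAR1. Genes with an equal median were not counted as lower in these shares, and -0.15 was the commonest fold of replicate 1.

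Folds over 1 input read take few values and carry wide intervals, so the ranking was repeated on clusters whose fold, as a ratio of whole reads in lowest terms, has a denominator of at least 2. That also leaves out clusters with more input reads whose ratio reduces to a denominator of 1. MAVS then had a median of 0.85 in replicate 1, higher than 93.0% of 4694 genes, and 2.59 in replicate 2, higher than 98.6% of 2102 genes. EIF2AK2 moved from 13.3% to 35.7% of genes lower in replicate 1 and from 30.9% to 48.7% in replicate 2. IFNAR1 stood above 9.67% in replicate 1 and had fewer than 10 such clusters in replicate 2.

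Summed over its clusters in replicate 2, MAVS held 475 IP reads and 123 input reads, a pooled log2 fold of 2.80 (interval 2.51 to 3.10). EIF2AK2 held 139 IP and 84 input reads in 23 of its 24 clusters, a pooled fold of 1.58 (interval 1.18 to 1.99). IFNAR1 held 55 IP and 35 input reads in 14 of its 15 clusters, a pooled fold of 1.51 (interval 0.87 to 2.16). The cluster left out was the lowest of its gene, at a fold of -0.47 in EIF2AK2 and 0.12 in IFNAR1, so both pooled folds are raised. The MAVS interval lay above those of EIF2AK2 and IFNAR1, which overlapped each other. In OAS3, 7 IP and 2 input reads gave a pooled fold of 2.66 (interval 0.27 to 5.96), which overlapped the intervals of the other genes. The clusters exist only where IP reads piled up, so these pooled folds describe the clusters and not the whole transcripts, and touching clusters may count a read more than once. Among clusters with reads recovered, those of MAVS held up to 58 IP reads in replicate 1 and 64 in replicate 2. The highest numbers were 42 and 15 in EIF2AK2 and 15 and 6 in IFNAR1. In replicate 1 reads were recovered for 31 of 36 MAVS clusters, 7 of 45 in EIF2AK2 and 6 of 45 in IFNAR1. Clusters without recovered reads may hold more, as 1 in IFNAR1 with a ratio of 16 to 17 does.

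Most MAVS clusters in both replicates, and most EIF2AK2 clusters in replicate 2, lay toward the end of the gene. In MAVS, 23 of 36 replicate 1 clusters, or 63.9%, and 19 of 22 replicate 2 clusters, or 86.4%, lay beyond 66.7% of the span. In EIF2AK2 the shares were 46.7% in replicate 1 and 75% in replicate 2. In IFNAR1 they were 37.8% and 33.3%. The median gene with at least 10 clusters had 31.6% of them there in replicate 1 and 24.7% in replicate 2. All 9 enriched clusters of the 8 genes lay there. They were replicate 2 clusters of MAVS and EIF2AK2, most of whose replicate 2 clusters lay there whether enriched or not. The share of enriched clusters there over all genes is not given here. Within MAVS the fold was not higher at the end in both replicates: the median was 1.17 beyond that point and 1.07 before it in replicate 1, and 2.70 beyond and 3.44 before it in replicate 2, where 3 clusters lay before it, each over 1 input read. Exons, introns and untranslated regions were not assigned to clusters.

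The replicates shared cluster positions in MAVS, EIF2AK2, IFNAR1 and OAS3. Of the replicate 2 clusters, 14 of 22 in MAVS, 12 of 24 in EIF2AK2, 6 of 15 in IFNAR1 and 1 of 2 in OAS3 overlapped a replicate 1 cluster by at least 1 base. For the 9 enriched replicate 2 clusters, 7 were overlapped by a replicate 1 cluster. None could be overlapped by an enriched one, since no replicate 1 cluster of the members was enriched. Over the 8 genes, 26.6% of replicate 1 clusters and 52.4% of replicate 2 clusters were overlapped in this way. The share of all clusters overlapped is not given here, so these shares do not set the members apart. Over the whole lists of 534161 and 155848 clusters, 87894 pairs were each other's best overlap.

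Clusters that were each other's best overlap were paired, which gave 32 pairs in the members. Of these, 28 had the higher fold in replicate 2, or 87.5%, against 80.7% of all 87894 pairs. The median difference, replicate 2 minus replicate 1, was 1.43 on the log2 scale in the members and 1.36 over all pairs. In MAVS 12 of 13 pairs were higher in replicate 2, with a median difference of 1.39. The corresponding numbers were 10 of 12 and 1.42 in EIF2AK2, and 5 of 6 and 1.22 in IFNAR1. Across the 32 pairs, which share 2 IP and 2 input libraries, Pearson's r was 0.53 and Spearman's rho 0.55, against 0.52 and 0.48 over all pairs.

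The counting intervals of most pairs overlapped. Of 20 member pairs with reads recovered in both replicates, 1 had a replicate 2 interval wholly above that of replicate 1, the MAVS cluster at chr20:3867472-3867511. Over all such pairs the share was 3.07%, and 0.502% lay the other way. The difference there was 3.22 on the log2 scale. In the MAVS pair with the highest fold the difference was 2.16 and the intervals overlapped. The pair 19.6 kb from the start was the one MAVS pair that went the other way, at 2.44 in replicate 1 and 0.63 in replicate 2.

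**Figure D3:**
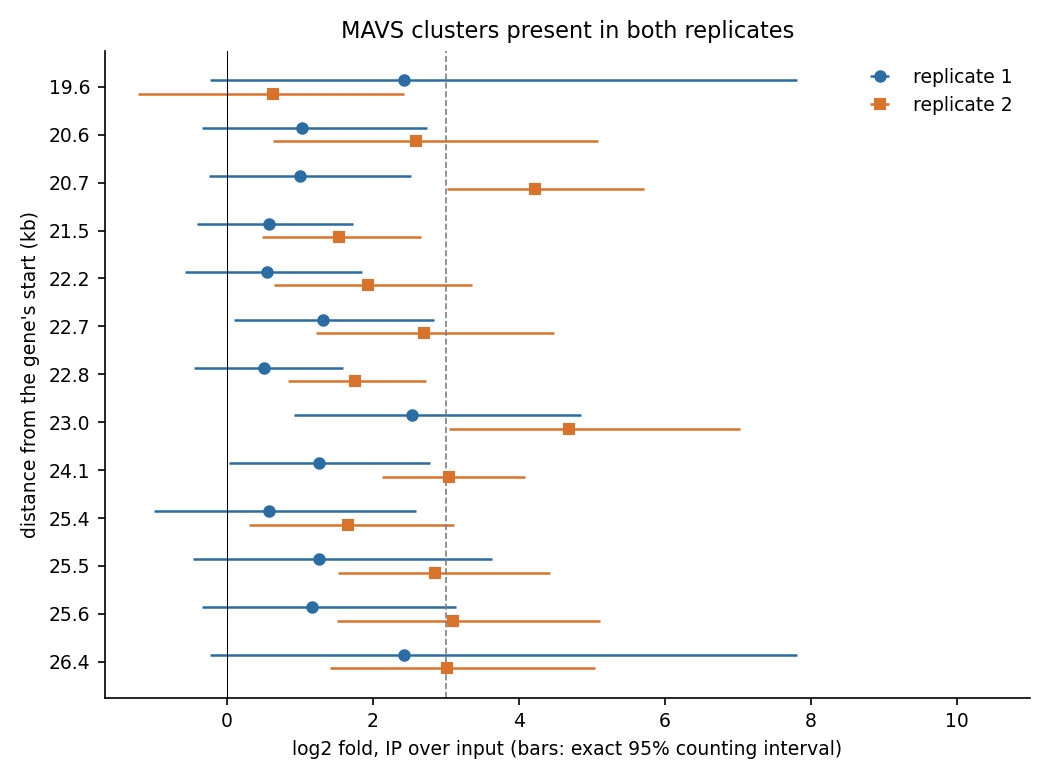
The 13 MAVS clusters paired between replicates, ordered by distance from the gene's start in kb; points are the authors' log2 fold of IP over input (circles replicate 1, squares replicate 2), bars are exact 95% counting intervals, and the dashed line is the fold threshold of 3. In 12 pairs the replicate 2 point lies to the right, and the bars are apart in 1, at 20.7 kb.

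Other genes of the pathway were examined in 5 lists of 56 genes in all, of which 40 held a cluster in replicate 1 and 29 in replicate 2. In replicate 1, 8 of their 1142 clusters were enriched, or 0.701%, and in replicate 2, 42 of 329, or 12.8%. These shares can be set beside 1.39% and 12.8% of all clusters. Among 12 further RNA sensors and regulators, 8 held a cluster in replicate 1 and 5 in replicate 2. None of their 285 replicate 1 clusters and 10 of their 73 replicate 2 clusters, or 13.7%, were enriched. Of these, 7 lay in PNPT1, the mitochondrial polynucleotide phosphorylase that degrades RNA in mitochondria.

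Among 12 genes that carry the signal from the sensors to interferon, 15 of 120 replicate 2 clusters and 5 of 384 replicate 1 clusters were enriched. These shares of 12.5% and 1.30% were near the 12.8% and 1.39% of all clusters. TRAF3, a ubiquitin ligase recruited by MAVS, was the 1 pathway gene with reproducible peaks, and it held 3. It had 4 enriched clusters among 142 in replicate 1 and 7 among 53 in replicate 2, and all 4 in replicate 1 were overlapped by an enriched replicate 2 cluster. Its highest folds were 3.91 in replicate 1 and 7.41 in replicate 2, while its median folds of 0.27 and 1.85 were below those of MAVS. TRAF6, another ubiquitin ligase that MAVS recruits, had 1 enriched cluster of 26 in replicate 1 and 4 of 7 in replicate 2, overlapping in 1 place. RELA, a subunit of NF-κB, had 3 enriched clusters of 4 in replicate 2 and none in replicate 1.

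Among 8 genes of interferon receptor signalling, 17 of 101 replicate 2 clusters and 3 of 328 replicate 1 clusters were enriched. These shares were 16.8% and 0.915%, beside 12.8% and 1.39% of all clusters. JAK1, a kinase that acts at this receptor, held 9 of the enriched clusters in replicate 2 and 2 in replicate 1. TYK2, the kinase bound by IFNAR1, held 3 in replicate 2 and 1 in replicate 1. IFNAR2, the partner chain of IFNAR1 in the receptor, had 49 and 17 clusters, close to the 45 and 15 of IFNAR1. It held 3 enriched clusters in replicate 2, with a highest fold of 5.69 against 3.44 in IFNAR1. Its strand was taken from its own clusters.

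Of 18 genes that interferon induces, 7 held a cluster in replicate 1 and 3 in replicate 2, beside 66.4% and 50.8% of protein-coding genes. They had 42 and 7 clusters in all and none was enriched, too few clusters to read against the 1.39% and 12.8% of all clusters. Among the 42, 24 lay in PARP14, an ADP-ribosyltransferase. IFIT1, IFIT2, IFIT3, IFI6, IFI44, IFI44L and MX2 were among the 11 without a cluster in replicate 1. The 6 genes downstream of EIF2AK2 all held clusters in both replicates, 103 and 28 in all, and none was enriched, beside the same shares of all clusters. Among them ATF4, the transcription factor translated when eIF2α is phosphorylated, had a median fold of 1.54 in replicate 1 and 0.03 in replicate 2.

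**Figure D4:**
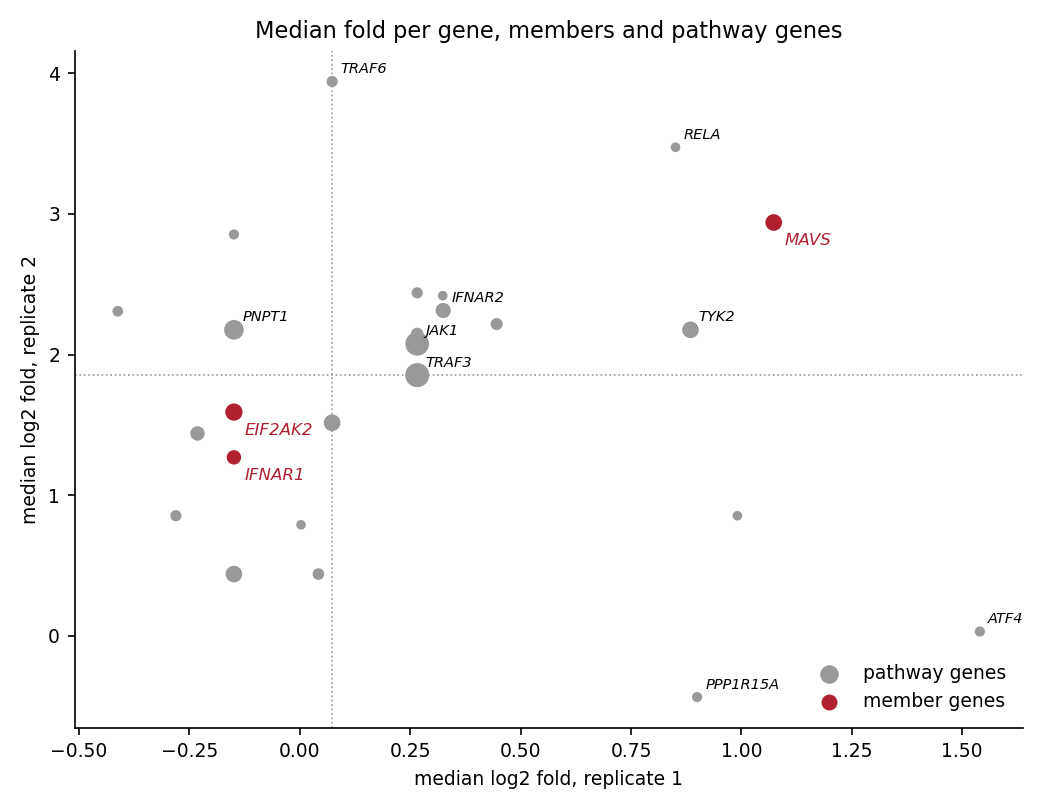
Median log2 fold of IP over input per gene, replicate 1 on the x axis and replicate 2 on the y axis, for the 22 pathway genes (grey) and 3 members (red) with at least 4 clusters in each replicate; point size grows with the number of replicate 2 clusters, and dotted lines are the medians of all clusters. MAVS lies at 1.07 and 2.94, and EIF2AK2 and IFNAR1 lie below both dotted lines.

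The genes most like EIF2AK2, the member with the most clusters over both replicates, were sought among 7911 protein-coding genes with clusters in both replicates, by the distance over log2 cluster numbers and median folds of both replicates. They were RNF11 at a distance of 0.212, WSB1 at 0.234 and SPTSSA at 0.234. RNF11 and WSB1 each held 7 enriched clusters in replicate 2 and 1 in replicate 1. SPTSSA held 1 in replicate 2 and none in replicate 1, against 2 and none in EIF2AK2.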

How the data were processed

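Of the 3 deposited lists, 2 hold the clusters of 1 replicate each and the other holds reproducible peaks. Each deposited −log10 p-value was computed by the authors for IP against input and is capped at 400. Each deposited log2 fold is likewise the authors' value for IP against input. The submitters' processing notes name cutadapt 1.9, STAR 2.4.0i and several genome builds. The peak caller and the rule for reproducible peaks are not given in the sources used here. Gene spans and promoters were those of RefSeq GRCh38.p14, and coordinates are counted from 1.

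Strand came from the promoter table, or from most clusters where a gene was not in it. OAS2 had no cluster on either strand. Spans of other genes overlap those of RIGI, EIF2AK2 and IFNAR1. IP and input reads were recovered from each fold and p, with the commonest fold taken as 3 IP reads over 1 input read. This gave whole-read ratios (tolerance 1e-06, on the log2 scale, denominators up to 500) for 99.9% of replicate 1 and 99.8% of replicate 2 clusters. Reads that gave back the p (tolerance 0.005) were found for 98.8% and 99.5% of the clusters with a −log10 p above 0, so reads and intervals exist for those only. No comparison of groups was tested, since each list gives 1 value per cluster.

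Members and gene lists were chosen with earlier results of these data known. All members are named. Clusters are given where enriched, where highest in their gene, or where they pair with one of these. Pathway genes are named where they hold a reproducible peak or overlapping enriched clusters, then the 5 with the most enriched clusters. PARP14, ATF4, the 7 interferon-induced genes named without a cluster and the EIF2AK2 and MAVS clusters outside this rule were chosen after their values were seen. Alternatives covered both thresholds, Benjamini-Hochberg adjustment at 0.05, the way clusters are assigned to genes, merging of touching clusters, overlap and input reads. Python 3.11.15, numpy 2.4.6, pandas 2.3.3, scipy 1.17.1 and matplotlib 3.10.9 were used, and the read recovery was tested on simulated data.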

Additional observations from a re-analysis of the deposited data

How the results depend on the processing

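Of 66 alternative values, 53 kept their direction and their size within the limits set for them, 12 moved and 1 reversed. Many of the 53 could not have changed. A replicate 1 count of 0, and any count that needs it, stays at 0 under every setting that keeps or raises the fold threshold. The tally is therefore no measure of how robust the results are. At a log2 fold threshold of 2, the members had 1 enriched cluster in replicate 1, the MAVS cluster at a fold of 2.54, so 1 gene was enriched in both replicates and 1 enriched replicate 1 cluster was overlapped by an enriched replicate 2 cluster. In replicate 2 the 9 enriched clusters became 12 at that threshold, 4 at a fold of 4, 5 at a −log10 p of 5, 13 with Benjamini-Hochberg adjustment in place of the p threshold, and 8 after merging. MAVS then had 10, 3, 5 and 10 under the settings other than merging, EIF2AK2 had 2, 1, 0 and 2, and IFNAR1 had 1 with the adjustment and 0 otherwise. A minimum of 2 input reads, added after seeing the data, left 8. Leaving out a replicate gave 2 enriched genes without replicate 1 and 0 without replicate 2. The median member fold reversed from 0.27 to -0.41 in replicate 1 and moved from 2.08 to 1.44 in replicate 2 when only denominators of at least 2 were used, which by construction drops folds over 1 input read and also better covered clusters whose ratio reduces to a denominator of 1. The ranking of MAVS on those denominators was also added after seeing the data. No paired analysis was possible because the result comes from no test between groups: each fold is already IP against input of 1 replicate number, and IP and input are not listed apart. At 2 input reads, 54 IP reads were needed for a call in replicate 1 and 10 in replicate 2. No member cluster in replicate 1 reached a fold of 3. An input of 1 read may stand for none, which would make such folds lower bounds.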
